A study of Mus musculus with 36 samples.

Results

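The 44 genes described here act in G2 and mitosis, the last 2 stages of the cell division cycle. They were chosen by name for their known roles in these stages. The rule held no value of these data, but earlier results of these data were known when the genes were chosen. All were found by symbol among the 40205 features of the count tables. The list covers CDK1, its B-type cyclins and their regulators (7 genes), the Aurora A, Polo, NEK2 and spindle checkpoint kinases (6), the coactivator and ubiquitin-conjugating enzyme of the anaphase-promoting complex (2), the chromosomal passenger complex (3), centromere and kinetochore proteins (6), spindle proteins (10), chromosome and chromatin proteins (5), nuclear envelope proteins (3) and cytokinesis proteins (2). RNA was sequenced from neural stem cells (NSCs) grown as floating neurospheres and from the extracellular vesicles (EVs) that the same flasks released, to ask how ethanol and fetal sex alter the RNA that NSCs hold and secrete. The NSCs came from the dorsal telencephalic neuroepithelium of wild-type C57BL/6J fetuses at gestational day 12.5 (the methods name the Ai14 line on this background). Fetal tissue was pooled by sex within each of 3 pregnancies, numbered 3, 4 and 5, which gave 3 female and 3 male cultures. Each culture was held for 5 days, at passages 7 to 10 and with fresh medium on day 3, in control medium (0 mg/dL), at 120 mg/dL ethanol or at 320 mg/dL ethanol, and each condition gave 1 cell library and 1 EV library. The 36 libraries therefore form 12 groups by location, sex and dose, each of 3 libraries. A library stands for 4 flasks of a culture pooled from several fetuses, so the data hold no value of a single fetus. The 3 doses of a culture share that culture, so p-values between the sexes, which take its 3 libraries as separate, are too small. The main fit of EVs against cells has no term for culture either. It takes the 18 libraries of a location as separate, so its p-values rest on more samples than the 6 cultures.

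A cell commits to division when CDK1 binds cyclin B and is switched on by CDC25 phosphatases, after which Aurora and Polo kinases build the spindle and condensins and topoisomerase II compact the chromosomes. The checkpoint kinases hold the anaphase-promoting complex back until every kinetochore is attached, and CDC20 then directs it to destroy cyclin B. RNAs of these genes rise in G2 and fall after division, and they are widely read as a sign of cycling cells, among them the NSCs that line the ventricle of the fetal cortex.

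Genes of this kind are known for CCAAT boxes and for the cell cycle genes homology region (CHR) in their promoters, and both were searched as plain letters in the 300 bases around each gene's start (250 before to 50 after the start of the Ensembl canonical transcript, GENCODE vM39 on GRCm39). CHR-like letters (TTTGAA or TTCGAA, on either strand) stood in 25 of the 44 promoters (56.8%) and in 17.5% of 19237 promoters of protein-coding genes. Within 50 bases of the start they stood in 19 (43.2%) and in 3.98% of all. CCAAT on either strand stood in 32 promoters (72.7%, against 39.4% of all), and 23 held at least 2 copies (52.3%, against 12.7%). Both kinds together stood in 22 (50%, against 7.54%). E2F-like letters (TTCCCGC or TTGGCGC, on either strand, which can share bases with CCAAT) stood in 6 (13.6%, against 8.83%). No searched letters were found in 8 promoters, those of Aurka, Birc5, Nuf2, Tpx2, Nusap1, Dlgap5, Tmpo and Rangap1 (18.2%, against 46.2%), which says only that these letters are not in this window. Such matches are descriptions of the sequence and not sites of binding. The 6 promoters printed here belong to genes on which the results below turn, 3 with CHR-like letters in the part shown (Cdk1, Top2a, Aurkb) and 3 without (Cenpa, Nek2, Anp32e). Each line runs 5′ to 3′ on the gene's strand from 140 bases before to 30 after the start, with CHR-like letters and CCAAT, or their reverse complements, in capitals.
Cdk1 (chr10:69188739-69188908, minus strand): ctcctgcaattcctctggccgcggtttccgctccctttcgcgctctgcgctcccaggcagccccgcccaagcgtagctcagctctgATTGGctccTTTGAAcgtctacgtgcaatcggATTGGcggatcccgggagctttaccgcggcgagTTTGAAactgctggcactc
Top2a (chr11:98915012-98915181, minus strand): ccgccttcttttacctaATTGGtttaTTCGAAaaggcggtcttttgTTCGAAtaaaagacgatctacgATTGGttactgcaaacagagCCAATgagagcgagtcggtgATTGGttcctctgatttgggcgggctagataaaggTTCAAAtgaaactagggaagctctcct
Aurkb (chr11:68936327-68936496, plus strand): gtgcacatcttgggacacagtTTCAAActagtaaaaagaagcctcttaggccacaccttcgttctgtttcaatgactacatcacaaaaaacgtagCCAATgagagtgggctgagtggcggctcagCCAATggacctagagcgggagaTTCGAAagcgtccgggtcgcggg
Cenpa (chr5:30823981-30824150, plus strand): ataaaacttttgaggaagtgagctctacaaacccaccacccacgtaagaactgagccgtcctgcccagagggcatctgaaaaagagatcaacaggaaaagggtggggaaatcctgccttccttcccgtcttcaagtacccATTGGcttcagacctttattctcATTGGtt
Nek2 (chr1:191553408-191553577, plus strand): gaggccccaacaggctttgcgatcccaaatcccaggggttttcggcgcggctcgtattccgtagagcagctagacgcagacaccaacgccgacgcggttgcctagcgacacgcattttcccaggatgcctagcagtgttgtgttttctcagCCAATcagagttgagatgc
Anp32e (chr3:95836417-95836586, plus strand): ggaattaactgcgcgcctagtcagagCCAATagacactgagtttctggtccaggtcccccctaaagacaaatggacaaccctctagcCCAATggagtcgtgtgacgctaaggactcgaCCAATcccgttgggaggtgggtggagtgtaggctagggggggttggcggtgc
In the part shown, Cdk1, Top2a and Aurkb carry CHR-like letters both before and just after the start, Cenpa and Nek2 carry CCAAT only from the start on, and Anp32e carries 3 copies of CCAAT before it.

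The cell libraries held 26.6 to 55.3 M counts (M, 1000000 counts) and the EV libraries 0.959 to 5.51 M, so the EV values carry the larger counting error. Every library had counts for all 44 genes. The median count of the 44 was 604 to 3375.5 in the cell libraries and 9 to 89.5 in the EV libraries, of which the shallowest had 21 genes with 10 or more counts. Together the genes took 0.185 to 0.487% of the counts in cells and 0.0887 to 0.37% in EVs. The largest share of 1 feature was mt-Rnr2 in cells (17.3 to 30.3%). In EVs 1 of 5 features, mt-Rnr2 and Cdk8 among them, led each library (7.04 to 23.1%). The cell type was checked with summed CPM (counts per 1 M of a scaled library total) of marker lists, on the joint scale defined below. Of 11 NSC markers 10 averaged above 1 CPM in cells, with a sum of 3080 to 4580 CPM led by Vim, Slc1a3 and Fabp7, while Sox2 was listed at 0 in all libraries. Oligodendrocyte lineage markers summed to 332 to 642 CPM in cells, those of neurons and intermediate progenitors to 477 to 997 and those of astrocytes to 21.4 to 269 (Aqp4 listed at 0). Microglial, endothelial and erythroid markers stood at or under 5.47 CPM in every cell library. In EVs the NSC sum was 628 to 1480 CPM and the endothelial sum 3.44 to 69.9.

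Levels are given below as CPM on 1 of 2 scales. The joint scale takes TMM factors over all 36 libraries and serves for EVs against cells, and the within-location scale takes them over the 18 cell or the 18 EV libraries alone and serves for doses, sexes and cultures. On the joint scale divided by the kilobases of annotated exons, the highest mean levels in cells were those of Anp32e, a chaperone that removes the histone variant H2A.Z (36 CPM per kb), Top2a, the topoisomerase that untangles sister chromatids (27.6), Ckap2, a microtubule-stabilizing protein (19.2), Ckap5, a microtubule polymerase (17.5), Smc4, a condensin subunit (17.3), and Mki67, which coats mitotic chromosomes and is the antigen of the Ki-67 stain (16.1). In EVs Anp32e stood at 464 CPM per kb, Nek2, a kinase that separates the centrosomes, at 17.6, Mki67 at 11.5 and Hjurp, which loads CENP-A at centromeres, at 10.9.

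**Figure D1:**
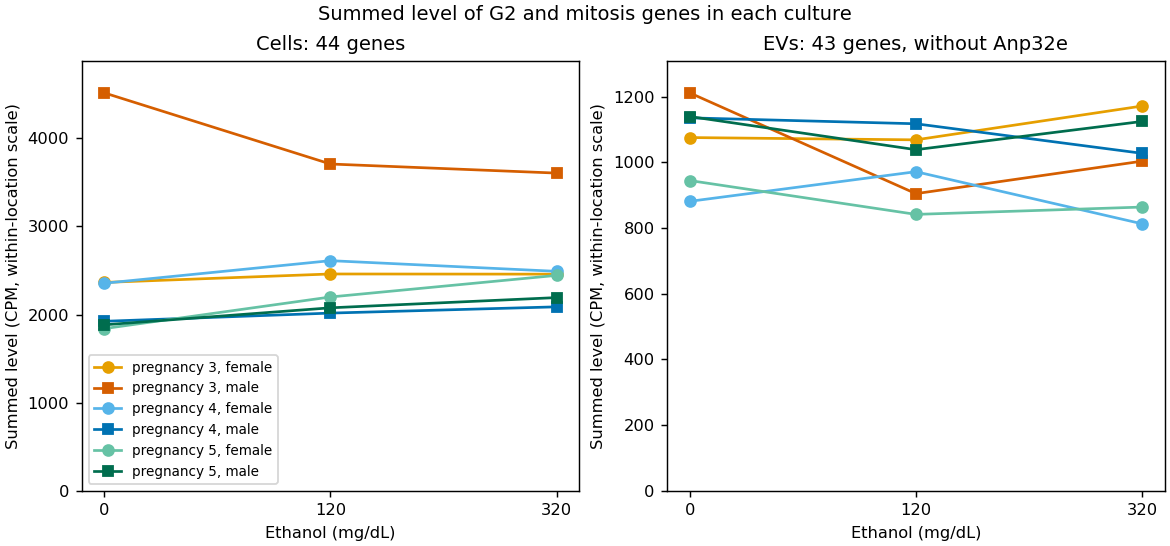
Summed within-location CPM of the G2 and mitosis genes in each culture at 0, 120 and 320 mg/dL ethanol, in cells (44 genes) and in EVs (43 genes, without Anp32e), with 1 line per culture. In cells the male culture of pregnancy 3 ran from 4515 to 3605 CPM, above all other cultures (1840 to 2611).

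In cells, 1 culture stood apart from the other 5. The male culture of pregnancy 3 had 4515 summed CPM (within-location scale) at 0 mg/dL, 3708 at 120 and 3605 at 320, and the other 15 cell libraries had 1840 to 2611. Its mean exceeded that of the other 15 libraries in 43 of the 44 genes, by more than 1.5 times in 36, with a median ratio of 1.93. In 34 genes all 3 of its libraries lay above the other 15. How many of all genes did so was not counted, so these counts do not set the 44 apart from other genes. Because this culture was singled out after its values were seen, no test is given. In bulk RNA a larger share of dividing cells and more RNA per dividing cell cannot be told apart.

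The excess in that culture ran through every role. Anln, which scaffolds the contractile ring, averaged 146 CPM against 48.7 ± 9.56 (SD, n = 15) in the other libraries, a ratio of 2.99. Cdca2, which recruits a phosphatase to chromosomes as mitosis ends, averaged 58.8 against 21.5 ± 7.09 (2.73). Cdk1, the kinase that drives entry into mitosis, averaged 126 against 49.8 ± 20.8 (2.54). Aurka, the centrosomal Aurora kinase, averaged 37.6 against 14.9 ± 3.55 (2.53), and Plk1, the Polo kinase, 28.8 against 11.6 ± 2.16 (2.49). In these 5 genes the 3 libraries did not overlap the other 15.

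Aurkb, the kinase of the chromosomal passenger complex, averaged 29.6 CPM in the male culture of pregnancy 3 against 12.4 ± 2.68, and its complex partner Birc5 (survivin) 22.1 against 11 ± 2.71. Cdc20 averaged 46.5 against 19.5 ± 2.33, Mki67 327 against 172 ± 22.3 and Top2a 488 against 263 ± 43.8. Cenpa, the histone that marks the centromere, averaged 44.4 against 26.3 ± 4.91, a ratio of 1.68. For these 6 genes too the groups did not overlap. Ccnb1, the main cyclin B of mitosis, averaged 73.4 against 38.2 ± 9.2 but its lowest library (52.2) lay under the highest of the others (55.2). The spindle genes Psrc1 (1.00) and Ckap5 (1.09) and the H2A.Z chaperone Anp32e (1.07) had ratios near 1. Of the 6 genes with a printed promoter, Cdk1, Aurkb, Nek2 (2.1), Top2a (1.85) and Cenpa lay above the others without overlap and Anp32e did not.

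Other cell cycle and marker genes moved in the same libraries, here on the within-location scale. The 34 other mitotic genes summed to a mean of 2115 CPM in the male culture of pregnancy 3 and to 1043 to 1410 in the others. The 28 S phase genes, which copy DNA, averaged 1811 in it, 1452 and 1123 in the female cultures of pregnancies 3 and 4, and 425.2 to 454.6 in the other 3. Its neuron and intermediate progenitor markers summed to 592 to 610 CPM (675.5 to 1166 in the other 15 libraries), its 11 NSC markers to 4855 to 5623 (3704 to 4877) and its 4 astrocyte markers to 238 to 331 (257 to 306 in the male culture of pregnancy 5 and 26.2 to 123 in the rest). Its totals of 36.7 to 49.3 M counts lay within the range of the others. The part of these markers in the result was not tested. In the EVs of the same culture the genes other than Anp32e, which dominates EV sums, came to 1212, 905.1 and 1004 CPM at 0, 120 and 320 mg/dL. The value at 0 mg/dL was the highest of all 18 EV libraries (mean 1019 ± 122, SD). Those at 120 and 320 mg/dL lay within the 813 to 1172 of the EV libraries of the other cultures.

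**Figure D2:**
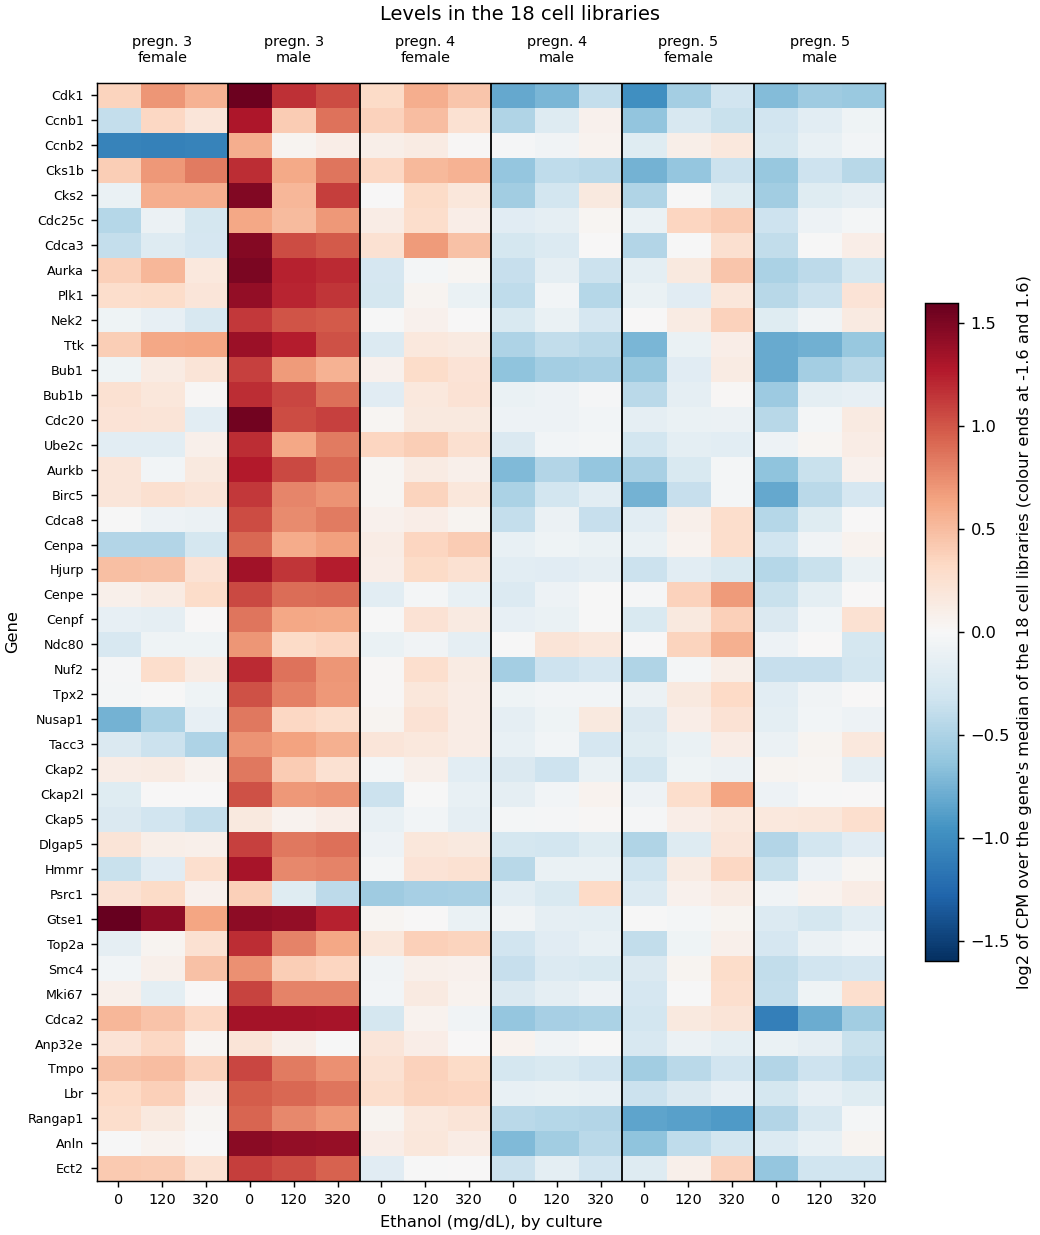
Level of each of the 44 genes in each of the 18 cell libraries as the log2 ratio of its within-location CPM to the gene's median over those libraries (colour bar, log2 units), genes ordered by role and libraries by culture and dose. The 3 libraries of the male culture of pregnancy 3 are above the median in nearly every gene.

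EVs were compared with cells over all 36 libraries to ask which of these RNAs the vesicles carry in a larger or smaller share than their cells of origin. All 44 genes had enough counts. In edgeR, with terms for sex and dose, 31 were lower in EVs, 8 were higher and 5 (Psrc1, Nuf2, Cdca3, Rangap1, Birc5) did not pass an adjusted p of 0.05. Over all 17758 genes tested 81.8% passed, 43.7% lower and 38.1% higher in EVs, so that passing was the rule and the genes stand out, if at all, by direction and size. Their median log2 fold change (EVs over cells) was -0.80, against -0.14 over all genes. With the culture and dose of each EV and cell library as a replicate block, which tested 22854 genes and called 81.2% of them, 33 were lower and 5 higher. Across 12 fits that differ in scaling, filter, tool or libraries, 15 genes passed as lower every time (Cks2, Bub1, Ube2c, Ndc80, Tpx2, Nusap1, Ckap2, Ckap5, Hmmr, Top2a, Smc4, Tmpo, Lbr, Anln, Ect2) and 4 as higher every time (Cdc25c, Nek2, Hjurp, Anp32e). Exons of other genes overlap those of some lower genes, on the same strand in Cks2 (Gm22806), Ckap5 (Snord67), Top2a (Gm23451) and Lbr (Gm55354). On the opposite strand they do so in Ube2c (Tnnc2), Nusap1 (Oip5) and others. The split moved with the scaling. Of the genes that passed, 20.5% were higher with TMM, 32.4% (11 of 34) with DESeq2's size factors and 10.5% (4 of 38) with library totals, as the median of all genes moved from -0.14 to 0.22 and to -0.65. The median of the 44 lay 0.66 to 0.68 below that of all genes under each of the 3 scalings. The distance was 1.59 without the filter on low counts, 1.21 in DESeq2 and 1.15 with the replicate block. It was 0.41 without pregnancy 3 and 0.09 with every library thinned to the smallest total, where 13 were higher and 15 lower of 43 tested.

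**Figure D3:**
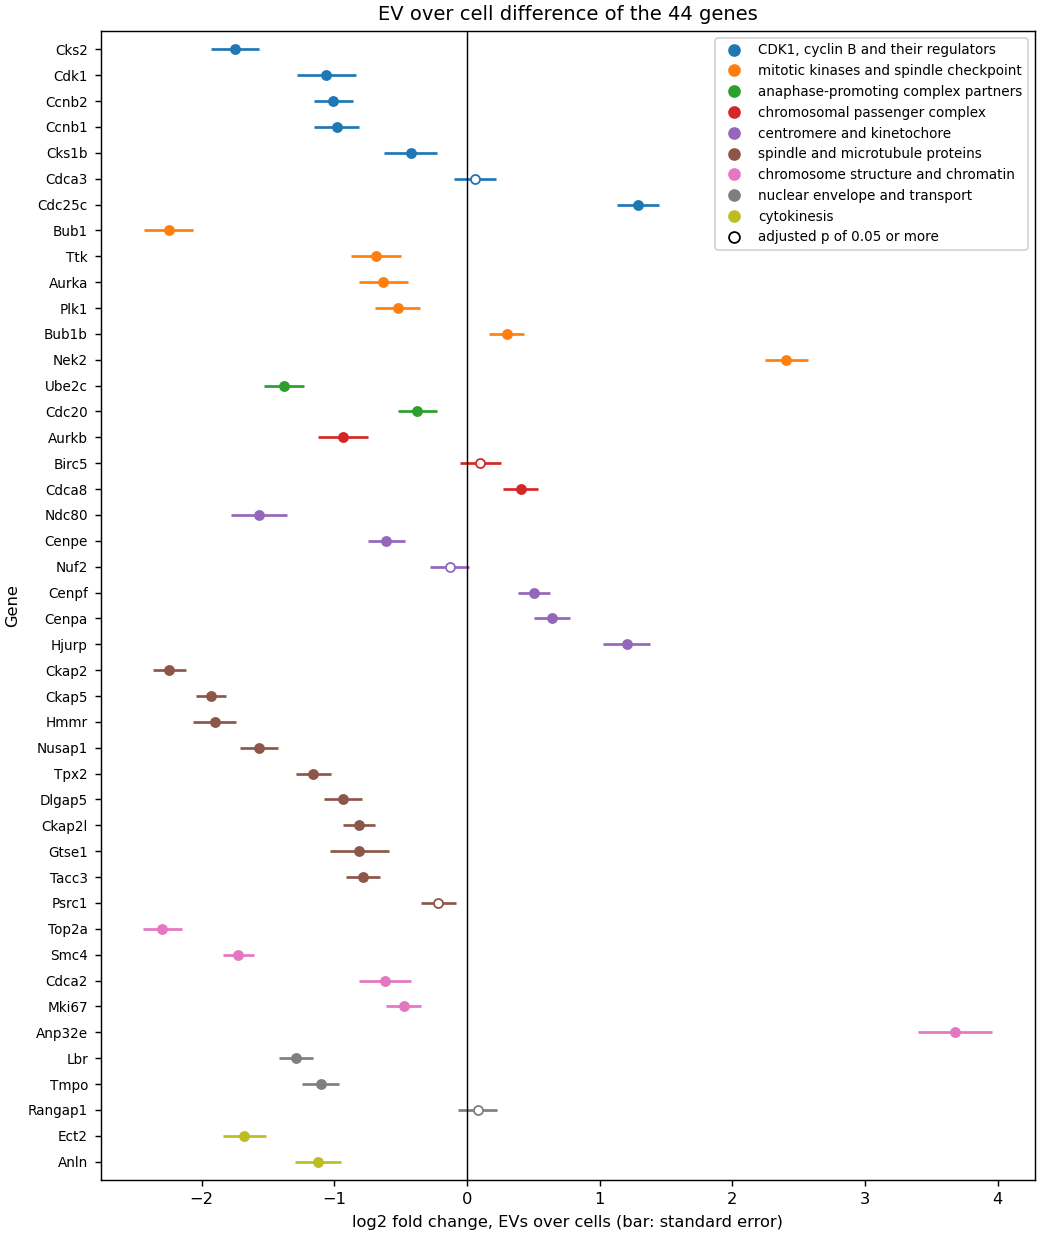
Log2 fold change of EVs over cells with its standard error (edgeR) for each of the 44 genes, grouped by role, where filled circles passed an adjusted p of 0.05 and open circles did not. Spindle, cytokinesis and nuclear envelope genes lie to the left of 0 apart from Rangap1, and Anp32e (3.68) and Nek2 (2.41) lie farthest to the right.

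Among the regulators of mitotic entry, 5 of 7 were lower in EVs and 1 was higher. Cdk1 had 10.3, 27.9 and 45.3 joint CPM in EVs (lowest, median and highest of 18 libraries) and 21.9, 44.8 and 126 in cells. It was lower in EVs in 15 of 18 pairs of EV and cell library although the ranges overlapped (log2 fold change -1.06, SE 0.22, adjusted p = 4.36e-05). Cdk1 did not pass with control libraries alone (-0.82, adjusted p = 0.0816) or with thinned libraries (-0.27, adjusted p = 0.311), and its exons overlap those of Ank3 on the opposite strand. Ccnb1 had 7.13, 17.5 and 31.6 joint CPM in EVs against 21.1, 33.3 and 78.3 in cells (-0.98, SE 0.17, adjusted p = 2.24e-06) and was lower in 17 pairs, though it did not pass with thinned libraries (-0.32, adjusted p = 0.0847). Cdc25c, the phosphatase that activates CDK1, went the other way. It had 2.38, 22.1 and 34.1 joint CPM in EVs and 6.01, 8.57 and 13.2 in cells (1.29, SE 0.16, adjusted p = 2.41e-09) and was higher in EVs in 17 pairs, though its exons overlap those of 2010110K18Rik and Rpl27rt on the opposite strand, and which strand was counted is not given in the sources used here.

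The kinases and the checkpoint split by gene (4 lower and 2 higher of 6). Bub1, a checkpoint kinase at kinetochores, had 1.37, 6.13 and 8.44 joint CPM in EVs and 17, 28.6 and 59.5 in cells, with no overlap and a 4.76-fold lower level (log2 -2.25, SE 0.18, adjusted p = 7.09e-14). Nek2 had 27.3, 83.9 and 155 joint CPM in EVs and 11.2, 13.5 and 28.8 in cells, 5.3-fold higher (log2 2.41, SE 0.16, adjusted p = 3.85e-16). Its ranges touched only at the lowest EV library, and it was higher in all 18 pairs. Plk1 had 3.74, 8.56 and 12.1 joint CPM in EVs and 7.36, 10.2 and 26.1 in cells (-0.52, SE 0.17, adjusted p = 0.00516). Plk1 passed in 6 of the 11 fits that tested it. It did not with DESeq2's size factors (-0.17, adjusted p = 0.363), with DESeq2, without pregnancy 3 (-0.09, adjusted p = 0.523), with control libraries alone (-0.79, adjusted p = 0.0516) or without the male culture of pregnancy 3, a fit added after the data were seen (-0.27, adjusted p = 0.054). Nek2 overlaps Gm38037 and Plk1 overlaps Gm44985 on the opposite strand. The other gene of the group that was higher was Bub1b (0.30, SE 0.13, adjusted p = 0.0388), a checkpoint protein that binds CDC20, which passed in 6 of the 12 fits and not with the EV and cell pair as a block (0.09, adjusted p = 0.543).

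Both genes of the anaphase-promoting complex were lower in EVs. Ube2c, its ubiquitin-conjugating enzyme, stood at -1.38 on the log2 scale (SE 0.15, adjusted p = 1.57e-10). Cdc20 had 6.46, 14.1 and 27.8 joint CPM in EVs and 12.4, 16.7 and 46.8 in cells (-0.37, SE 0.15, adjusted p = 0.0195). Cdc20 passed in 6 of the 12 fits. With DESeq2's size factors it stood at -0.03 (adjusted p = 0.872) and with thinned libraries its sign turned (0.35), and it did not pass with DESeq2, without pregnancy 3 or 4 or with control libraries alone. Its exons overlap those of Elovl1 on the opposite strand. The passenger complex genes did not move together. Aurkb had 1.19, 6.3 and 10.9 joint CPM in EVs and 7.31, 11.8 and 27.4 in cells (-0.93, SE 0.19, adjusted p = 3.17e-05; -0.14 and adjusted p = 0.631 with thinned libraries), Cdca8 (borealin) was higher (0.41, SE 0.13, adjusted p = 0.00501), and Birc5 stood at 5.94, 10.6 and 16.1 in EVs and 5.83, 10.1 and 21.4 in cells (0.10, SE 0.16, adjusted p = 0.559). Birc5 was called in both directions over the fits, lower with library totals (-0.43) and higher in 4 others, from 0.43 without pregnancy 3 to 0.83 with thinned libraries. With the EV and cell pair as a block Cdca8 did not pass (0.18, adjusted p = 0.28), and it passed in 7 of the 12 fits. Its exons overlap those of Airim on the opposite strand.

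Centromere and kinetochore genes were higher in 3 cases of 6 and lower in 2. Hjurp had 57.2, 117 and 228 joint CPM in EVs and 34.1, 46.3 and 113 in cells, 2.3-fold higher (log2 1.20, SE 0.18, adjusted p = 1.72e-07), and was higher in all 18 pairs. Its exons overlap those of Mroh2a and Trpm8 on the opposite strand. Cenpa, which HJURP loads, had 19, 39.3 and 60.6 joint CPM in EVs and 15.8, 22.7 and 41.3 in cells (0.64, SE 0.13, adjusted p = 4.41e-05) and was higher in 14 pairs. With library totals its log2 fold change was 0.16 (adjusted p = 0.406). Cenpf, a large kinetochore protein, was higher (0.51, SE 0.12, adjusted p = 0.000234) but did not pass with the EV and cell pair as a block (0.24, adjusted p = 0.127), and it passed in 9 of the 12 fits. Its exons overlap those of Gm70084 on the opposite strand. Ndc80, which holds kinetochores to microtubules, was lower (-1.57, SE 0.21, adjusted p = 1.54e-08), while its direct partner Nuf2 did not pass (-0.13, SE 0.15, adjusted p = 0.409). Over the 12 fits Nuf2 was called lower in 3 and higher in 1, with thinned libraries (0.57, adjusted p = 0.0037). The block was 1 of the 3 (-0.34, adjusted p = 0.0222).

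In EVs 9 of the 10 spindle genes were lower and none was higher (median -1.05 on the log2 scale). Ckap2 had 7.13, 12.5 and 24.3 joint CPM in EVs and 48.6, 61.1 and 105 in cells, 4.73-fold lower and without overlap (-2.24, SE 0.12, adjusted p = 1.03e-18). Ckap5 had 27.1, 39.8 and 68.6 in EVs and 129, 166 and 203 in cells, 3.8-fold lower and without overlap (-1.93, SE 0.11, adjusted p = 1.16e-17). Ckap5 was also one of the genes whose ratio in the male culture of pregnancy 3 was near 1. The remaining gene, Psrc1, stood at -0.22 on the log2 scale (SE 0.13, adjusted p = 0.134). Psrc1 was called lower in 4 fits, the block among them (-0.50, adjusted p = 0.00113), and higher in 1, with thinned libraries (0.51, adjusted p = 0.00261).

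Of the chromosome genes 4 of 5 were lower in EVs. Top2a had 27.6, 48 and 79.3 joint CPM in EVs and 167, 225 and 490 in cells, 4.91-fold lower and without overlap (-2.30, SE 0.15, adjusted p = 9.03e-17). Smc4 had 15.4, 35.1 and 48.8 in EVs and 84.3, 107 and 174 in cells, 3.3-fold lower and without overlap (-1.72, SE 0.12, adjusted p = 5.14e-16). Mki67 differed much less. It had 68.9, 117 and 184 joint CPM in EVs and 116, 147 and 304 in cells (-0.48, SE 0.13, adjusted p = 0.00141) and was lower in 13 of 18 pairs. Mki67 passed in 8 of the 12 fits. It did not with DESeq2's size factors (-0.13, adjusted p = 0.308), with DESeq2, with control libraries alone or with thinned libraries (0.20). The nuclear envelope genes Lbr (-1.29) and Tmpo (-1.10) and the cytokinesis genes Ect2 (-1.68), an activator of RhoA, and Anln (-1.12) were lower.

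Anp32e was the exception among the chromosome genes and had the largest difference of the 44. It had 328, 1610 and 4250 joint CPM in EVs and 102, 128 and 162 in cells, 12.8-fold higher, with no overlap and a higher value in all 18 pairs (log2 3.68, SE 0.28, adjusted p = 9.58e-15). Its EV level differed widely between cultures. On the within-location scale the mean over the 3 doses was 407 CPM in the male culture of pregnancy 3 and 614.8 in the female culture of pregnancy 4, and 2125 and 2670 in the female and male cultures of pregnancy 5. This gene made up 22.5 to 77.6% of the counts of the 44 genes in EVs and 3.88 to 8.23% in cells, so that it set the direction of their sum. In EVs the 44 genes summed to 2885 ± 1150 joint CPM (SD, n = 18) with Anp32e and to 1229 ± 258 without it. In cells the sums were 2099 ± 553 and 1971 ± 549. No annotated exon on either strand overlaps those of Anp32e, which spans 3:95836557-95854705 of GRCm39 in 7 exons.

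**Figure D4:**
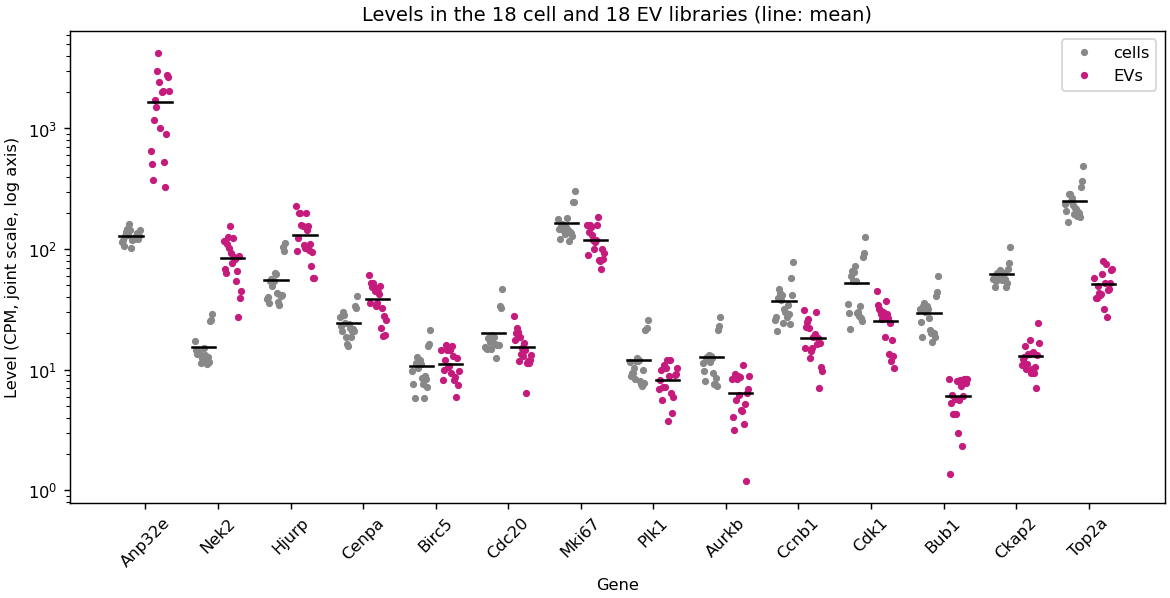
Joint CPM (log axis) in each of the 18 cell libraries (grey) and 18 EV libraries (magenta) for 14 of the genes, with the mean of each group as a line. Top2a, Ckap2 and Bub1 separate fully with EVs lower, and Anp32e separates fully with EVs higher.

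Other cell cycle genes, in lists kept apart from the 44, leaned the same way. Of 34 other mitotic genes 22 were lower and 9 higher in EVs with a median log2 fold change of -0.87, led by the condensin subunit Smc2 (-2.62, adjusted p = 4.25e-17), the checkpoint protein Bub3 (-1.59, adjusted p = 9.91e-17) and the spindle motor Kif11 (-1.72, adjusted p = 5.86e-16). Of 28 S phase genes 17 were lower and 2 higher (median -1.04), led by the replication clamp Pcna (-2.68, adjusted p = 3.6e-12). Of 21 cell cycle regulators 12 were lower and 5 higher (median -0.53). Lin9, a subunit of the complex that reads CHR elements, was lower (-1.65, adjusted p = 1.86e-14) and Cdc25b, a sister of Cdc25c, was higher (1.86, adjusted p = 4.83e-13).

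Ethanol was compared with control in cells within each culture, to ask whether dose altered the proliferative state. In edgeR with the culture as a block, 0 of the 44 genes passed an adjusted p of 0.05 at 120 against 0, at 320 against 0 or at 320 against 120 mg/dL, and 0% of 18725 genes did in each case. At an unadjusted p under 0.05 there were 1, 6 and 0 of the 44, all of them higher with ethanol, beside 2.54%, 8.41% and 3.64% of all genes, and DESeq2 called 0 of the 44 in each. The log2 fold changes were positive in 36 of 44 genes at 120 mg/dL and in 37 at 320, beside 45.6% and 49.8% of all genes. Their medians were 0.07 and 0.14, while the medians of all genes were -0.01 and -0.000978. The comparisons at 120 and 320 mg/dL share the control libraries, and the genes vary together, so such counts are not separate observations. The summed level was 2480 ± 1020 CPM (within-location scale) at 0, 2512 ± 629 at 120 and 2546 ± 544 at 320 mg/dL (SD, n = 6 each). These SDs hold the spread between cultures, which the comparison within cultures sets aside, so they do not measure the dose difference. The ratios within cultures are given below.

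At 320 mg/dL Cenpe, the motor that carries chromosomes to the spindle equator, had the smallest p. It had 46.8, 55.95 and 124 within-location CPM at 0 (lowest, median and highest of 6 cultures), 53.7, 61.9 and 110 at 120 and 54.9, 66.6 and 112 at 320 mg/dL (log2 fold change 0.23 at 320, SE 0.09, adjusted p = 0.491). Cdc25c came next (0.21, SE 0.08, adjusted p = 0.517) and was also first at 120 mg/dL (0.19, SE 0.08, adjusted p = 1). The doses overlapped in every gene.

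For the genes most used as marks of division, Mki67 had 135, 160 and 373 within-location CPM at 0, 157, 172 and 305 at 120 and 166, 197 and 304 at 320 mg/dL (0.17, adjusted p = 0.711). Top2a had 201, 228 and 601 at 0, 233.5, 262 and 457 at 120 and 244, 296 and 405.5 at 320 (0.15, adjusted p = 0.766). Cdk1 had 26.3, 48.1 and 155 at 0, 31.4, 56.7 and 117 at 120 and 34.5, 56.5 and 108 at 320 (0.17, adjusted p = 0.763). In all 3 genes the medians at 120 and 320 mg/dL lay above that of control, while the highest library, from the male culture of pregnancy 3, was lower with ethanol.

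Ccnb1, Aurkb and Cenpa had log2 fold changes of 0.16 at 320 mg/dL (adjusted p = 0.818, 0.766 and 0.638). Birc5 had 0.22 (adjusted p = 0.668), Plk1 0.13 (adjusted p = 0.821) and Cdc20 -0.01 (adjusted p = 0.991). The 320 mg/dL library was above its own control in 5 of 6 cultures for Cdk1, Top2a, Birc5 and Cenpa, in 4 for Mki67, Ccnb1, Aurkb and Cdc20 and in 3 for Plk1.

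Within cultures, the levels in the male culture of pregnancy 3 were lower with ethanol and those in most others were higher. In it 1 of the 44 genes was above control at 120 mg/dL and 1 at 320, and the sum was 0.821 and 0.799 of control. In the female culture of pregnancy 5, 41 and 43 genes were above control (sum ratios 1.2 and 1.33), in the male culture of pregnancy 5, 40 and 41 (1.1 and 1.16), in the female culture of pregnancy 4, 41 and 33 (1.11 and 1.06) and in the male culture of pregnancy 4, 36 and 37 (1.05 and 1.09). The female culture of pregnancy 3 was divided, with 28 and 21 (1.04 in both). Among all genes tested 44.1 to 53.7% were above control in the same comparisons. The difference between cultures has no replicate and was not tested.

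The ethanol values depended on that culture. Leaving it out was an alternative added after the data were seen. Without it 20 of the 44 genes at 120 and 25 at 320 mg/dL had an unadjusted p under 0.05. Over all genes 5.49% and 12.9% did, the medians of the 44 were 0.17 and 0.24, and 0 passed the adjusted threshold. The male culture of pregnancy 3 was singled out for its high values of these genes, and its levels were lower with ethanol. Its removal therefore raises the ethanol estimates by construction, and the genes vary together. Without both cultures of pregnancy 3, which leaves it out too, the counts were 22 and 29, beside 5.28% and 11.2% of all genes. At each dose 42 of 44 were then positive, where 53% and 52.2% of all genes were. Without pregnancy 5 only 24 and 18 of 44 were positive and the median at 320 was -0.01. The 34 other mitotic genes were positive in 31 and 30 cases with 0 passing, the 28 S phase genes in 14 and 14 and the 21 regulators in 7 and 10.

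**Figure D5:**
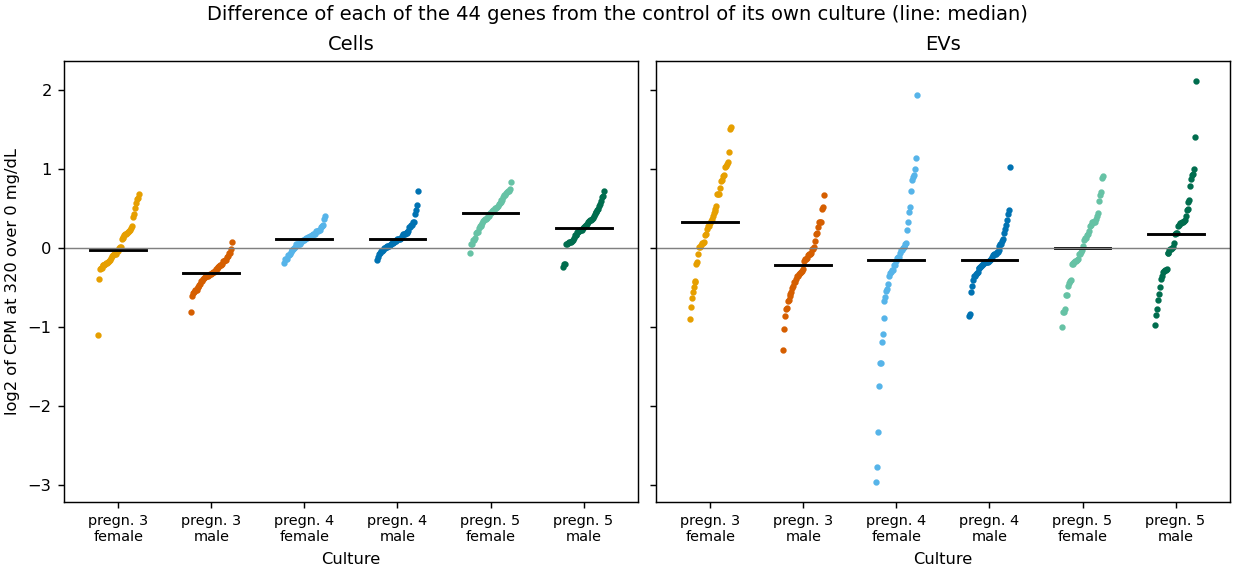
Log2 ratio of within-location CPM at 320 over 0 mg/dL for each of the 44 genes within each of the 6 cultures, in cells and in EVs, with the median of the genes as a line. In the cells of the male culture of pregnancy 3, 1 gene lies above 0, and in those of the female culture of pregnancy 5, 43 do.

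In EVs, 0 of the 44 genes passed in edgeR at 120 against 0, 320 against 0 or 320 against 120 mg/dL, where 0.00758%, 0.0758% and 0% of 13193 genes did. At an unadjusted p under 0.05 there were 5, 8 and 1 of the 44 (5.94%, 10.8% and 3.64% of all genes), and DESeq2 called 0, 2 and 0. Genes went both ways, with 16, 22 and 26 positive. The 2 called by DESeq2 at 320 mg/dL, where it called 1.35% of all genes, were Nek2 (-0.71, adjusted p = 0.00583) and Hjurp (-0.53, adjusted p = 0.00407), which were also the 2 with the smallest p in edgeR and are both among the genes that EVs held at a higher level than cells.

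Nek2 had 105, 82.8, 55.7, 83.7, 76 and 126 CPM (EV within-location scale) at 0 mg/dL in the female and male cultures of pregnancies 3, 4 and 5 in that order, and 62.6, 49.1, 30.3, 80.8, 38.1 and 64.3 at 320. It was lower at 320 in 6 of 6 cultures, with -0.73 on the log2 scale (SE 0.17, adjusted p = 0.141 in edgeR). At 120 mg/dL it was lower in 4 of 6 (-0.42, SE 0.17, adjusted p = 0.841).

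Hjurp had 167, 162, 99.5, 151, 82.9 and 126 CPM at 0 mg/dL in the same order and 119, 95.3, 80.4, 127, 48.5 and 84.2 at 320, again lower in 6 of 6 (-0.54, SE 0.14, adjusted p = 0.167). The groups overlapped for both genes, since the cultures differed in level. Both passed in edgeR without pregnancy 4 (Nek2 -0.87, adjusted p = 0.034, and Hjurp -0.66, adjusted p = 0.0435, with 0.48% of all genes called), and Nek2 passed without the filter on low counts (-0.76, adjusted p = 0.0202, 0.699% of all genes).

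Plk1 had 3.15, 5.34 and 7.93 CPM in EVs at 0 mg/dL (lowest, median and highest of 6) and 6.59, 8.69 and 9.98 at 320, higher in 5 of 6 cultures (0.68, SE 0.18, adjusted p = 0.172), from 4 to 41 counts per library. Cdk1 had 13.8, 24.1 and 32.2 at 0 and 8.71, 17.96 and 24.5 at 320, lower in 6 of 6 (-0.45, SE 0.14, adjusted p = 0.21). Top2a had 26.8, 36.1 and 45.6 at 0 and 30.3, 54.2 and 65.8 at 320, higher in 4 of 6 (0.41, SE 0.17, adjusted p = 0.384). None of the 3 passed, and the other genes of the core set had adjusted p of 0.736 or more. Whether ethanol altered the EV level relative to the cell level was tested as an interaction over 22854 genes. Of the 44 genes 0 passed at either dose in edgeR, 0 had an unadjusted p under 0.05 and DESeq2 called 0, beside 0.00438% and 0% of all genes passing and 1.22% and 1.58% with an unadjusted p under 0.05. The smallest p at 320 mg/dL belonged to Nek2 (-0.79, SE 0.44) and Hjurp (-0.59), with adjusted p = 1 for both.

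Between 9 female and 9 male cell libraries 0 of the 44 genes passed in edgeR, where 5.7% of all genes did, and 1 had an unadjusted p under 0.05 (22.3% of all genes), while DESeq2 called 0. The log2 fold changes (females over males) were negative in 39 genes, with a median of -0.21, against -0.005 over all genes. The smallest p belonged to Ckap5 (-0.20, SE 0.09, adjusted p = 0.194), which passed with the pregnancy as a replicate block (-0.21, adjusted p = 0.0435, with 16.5% of all genes called). Cdc20 came next (-0.47, adjusted p = 0.272). The pregnancies differed. In pregnancy 3 the female library was above the male one in 2, 5 and 3 of the 44 genes at 0, 120 and 320 mg/dL, and the sum was 0.524 to 0.682 of the male one. In pregnancy 4 it was above in 39, 41 and 36 genes (sum ratios 1.19 to 1.3) and in pregnancy 5 in 24, 33 and 32 (0.977 to 1.11).

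Without the male culture of pregnancy 3, 13 genes were higher in female cells and 0 lower (24.2% of all genes passed), among them Cdca2 (0.84), Cdk1 (0.86), Bub1 (0.63), Birc5 (0.46) and Aurkb (0.44), none of which passed with it. That culture was singled out for its high values of these genes. Leaving it out therefore raises females over males by construction (median -0.21 with it and 0.25 without it). The female culture of pregnancy 3 then also lacks its male counterpart. Without both cultures of pregnancy 3, 9 genes passed as higher in female cells, led by Cdca2 (0.65, adjusted p = 0.00457), Bub1 (0.60, adjusted p = 0.0157) and Smc4 (0.34, adjusted p = 0.0198), beside 11.4% of all genes. This fit too leaves out the male culture singled out (median 0.24) and takes the 3 doses of each remaining culture as separate. With the counts of each culture summed over doses, 3 against 3, 0 passed.

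In EVs 0 of the 44 genes passed between females and males in edgeR (12% of all genes did), 8 had an unadjusted p under 0.05 (31.7% of all genes), 2 of them higher in females, and DESeq2 called 0. Cdc20 (-0.40, SE 0.16, adjusted p = 0.0931), the nuclear transport protein Rangap1 (-0.34, SE 0.14, adjusted p = 0.104), Cenpa (-0.37, adjusted p = 0.117) and Cdk1 (-0.43, adjusted p = 0.148) had lower estimates in females. With the pregnancy as a replicate block 6 genes passed, beside 28.3% of all genes. They were Cdk1 (-0.53, adjusted p = 0.00896), Cenpa (-0.43, adjusted p = 0.0138), Rangap1 (-0.38, adjusted p = 0.0179), Cdc20 (-0.45, adjusted p = 0.026) and Ckap2l (-0.32, adjusted p = 0.0426), lower in females, and Ndc80 (0.88, adjusted p = 0.0475), higher. With the counts of each culture summed over doses, 3 against 3, 0 of the 44 and 0 of all 14847 genes tested passed, with 2 of the 44 and 2229 of all at an unadjusted p under 0.05. Without pregnancy 3, 7 were lower in females and 0 higher (27% of all genes), led by Nek2 (-0.91, adjusted p = 0.00996). In the regulator list 5 genes were lower in female EVs, among them the CDK inhibitor Cdkn1a (-0.66, adjusted p = 0.0123), E2f4 (-0.54, adjusted p = 0.0156) and Foxm1, an activator of mitotic genes (-0.57, adjusted p = 0.023). None of the 5 passed with counts summed over doses.

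The sex difference in EVs was set against that in cells as an interaction, in which 0 of the 44 passed, 3 had an unadjusted p under 0.05 and 1.89% of all genes passed (18.9% unadjusted, DESeq2 called 0). Cdk1 had the smallest p (-0.85, SE 0.31, adjusted p = 0.139). Without pregnancy 3, 14 genes passed, all lower (11.9% of all genes), led by Cenpa (-1.06, adjusted p = 0.00447) and Cdk1 (-1.35, adjusted p = 0.00554). That fit leaves out the male culture singled out for its high values of these genes in cells. Females over males in cells then rise, and this contrast falls, by construction (median -0.25 with pregnancy 3 and -0.63 without it). It also rests on fewer cultures, whose 3 doses are taken as separate. Whether the sexes differed in their response to 320 mg/dL was tested in the same way. In cells 0 of 44 passed, 4 had an unadjusted p under 0.05 and 0% of all genes passed (17.6% unadjusted), with the smallest p for the checkpoint kinase Ttk (0.51, SE 0.18, adjusted p = 0.228) and Smc4 (0.44, SE 0.17, adjusted p = 0.24). In EVs 0 passed, 1 had an unadjusted p under 0.05 (Cdc20, 0.78, adjusted p = 1) and 0% of all genes passed (4.07% unadjusted). DESeq2 called 0 of the 44 in both.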

How the data were processed

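Reads of rRNA-depleted stranded libraries were deduplicated, trimmed with Trimmomatic, aligned to mm39 with STAR and assigned to genes with HTSeq. The authors deposited whole counts per gene and library with no normalization. The annotation and strand setting of the counting are not given in the sources used here. Depth was 26.6 to 55.3 M counts in cells and 0.959 to 5.51 M in EVs. Coordinates and promoters were read from GRCm39 with GENCODE vM39.

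All features were fitted in R 4.3.3 with edgeR 4.0.16 (filterByExpr, minimum count 10 and total 15, TMM, quasi-likelihood F tests), and p-values were adjusted by Benjamini-Hochberg over all genes tested, with 0.05 as the threshold. EVs against cells had terms for sex and dose, doses the culture as a block, the sexes a term for dose, interactions of location the EV and cell pair as a block and that of sex with ethanol the culture. DESeq2 1.42.0 was an alternative, as were its size factors, library totals, no filter, thinning to 959217 counts, the other choice of block, control libraries alone, counts summed over doses and leaving out each pregnancy. The fits without the male culture of pregnancy 3, and sums without Anp32e, were chosen after seeing the data. Only the main edgeR fits of EVs against cells, of the higher dose against control and of the sexes were tested on simulated data. The interactions, the other dose comparisons, DESeq2 and the other alternatives were not, and no simulation result is given here. Figures were drawn with matplotlib 3.10.9.

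Pairing follows from the design, since doses split a culture, EVs and cells came from the same flasks and the sexes of a pregnancy share a litter. Deviations from the group mean correlated with medians of 0.638 and 0.558 between the 120 or 320 mg/dL and control cells of a culture, 0.173 and 0.204 in EVs, 0.0632 between EVs and cells of a pair, and 0.329 in cells and 0.0865 in EVs between the sexes.

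The 44 genes, the other lists and the tests were chosen with earlier results of these data known. Named in each comparison are Mki67, Top2a, Cdk1, Ccnb1, Plk1, Aurkb, Birc5, Cdc20 and Cenpa, up to 5 genes past the threshold in each direction by smallest p (the 2 smallest p where none passed), and for EVs against cells the 3 highest and 3 lowest fold changes. For the other lists up to 3 genes past the threshold are named. Other genes were chosen after their values were seen.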

Additional observations from a re-analysis of the deposited data

Results flagged for a closer look

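The 6 cultures at each dose were examined for a value far from the rest (gap to the nearest value over the range above 0.625, for the sum of the 44 genes and 9 single genes at 3 doses in cells and in EVs, 60 groups in all). For separate groups chance flags about 1 in 20, but these are not separate, since the sum contains the genes and the genes vary together. Found were 20, each of them the highest value of the male culture of pregnancy 3 in cells. At 0 mg/dL these were the sum (4515 CPM, within-location scale), Mki67 (372.7), Top2a (601.2), Cdk1 (154.7), Ccnb1 (96.1), Plk1 (31.95), Aurkb (33.62), Birc5 (26.22), Cdc20 (57.38) and Cenpa (50.61). At 120 mg/dL they were the sum (3708), Mki67 (304.7), Plk1 (27.92), Aurkb (28.88) and Cdc20 (40.32). At 320 mg/dL they were the sum (3605), Mki67 (304.2), Plk1 (26.6), Aurkb (26.37) and Cdc20 (41.85). The 3 doses share 1 culture, so all 20 describe that culture, and no value in EVs was found in this way.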

How the results depend on the processing

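Under the alternatives 144 values of the counts of genes and of the summed levels stayed close to the reported ones and 15 did not. For single genes 1233 values kept direction and call, 18 lost a call, 19 gained one, 102 with no call changed sign and 6 changed sign with a call in either fit. Between EVs and cells the count of genes higher in EVs (8) was 4 with library totals, 5 without the filter, 5 with the replicate block and 13 with thinned libraries, where 15 rather than 31 were lower. The signs of Mki67 (0.20) and Cdc20 (0.35) turned with thinned libraries and that of Birc5 (-0.43) with library totals. In EVs at 320 against 0 mg/dL, where 0 passed, 1 passed without the filter, 2 with DESeq2 and 0 to 2 when a pregnancy was left out. Between the sexes in cells, where 0 passed, 1 passed with the replicate block, 0 to 9 when a pregnancy was left out and 13 without the male culture of pregnancy 3, where Cdk1 (0.86), Aurkb (0.44) and Birc5 (0.46) turned to higher in females. Between the sexes in EVs 6 passed with the replicate block and 0 to 7 when a pregnancy was left out, and for the sex difference of EVs against that of cells 0 to 14. The block changed the call of no other count. The summed EV level was 1229 CPM without Anp32e. The cause of these changes was not tested, except that thinning left 9396 genes tested. The median count of the 44 genes was 9 to 89.5 in an EV library, and the size of change that this depth could show was not measured.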
